A study of Mus musculus with 4 samples.

Results

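Flt3 and 7 other genes that mark or prime lymphoid fate in early progenitors (Il7r, Ccr9, Rag1, Rag2, Dntt, Ikzf1 and Satb1) were compared between Meis1-deficient and control LSK cells, gene by gene and slide by slide. Every non-control probe whose gene name on the array was one of these 8 was taken, which gave 15 of 41174 probes. Of the 15 probes, 9 were tested, which required a signal well above background on every array of 1 genotype or of both, and 22007 probes of the whole array met this rule. They covered 7 of the 8 genes, because the single Rag2 probe stayed dim.

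LSK cells are the lineage-negative bone marrow cells, positive for Sca-1 and c-Kit, that contain hematopoietic stem cells and multipotent progenitors. Both genotypes were on a C57BL/6J background and carried Meis1 fl/fl, in which loxP sites surround the exon that encodes the homeodomain, and the Meis1-deficient mice carried Mx1-Cre in addition. Mx1-Cre is switched on by interferon and is not limited to hematopoietic cells. By the sample labels both genotypes, aged 4 to 8 weeks, received 4 injections of 1.5 ug/g poly(I:C), whereas other descriptions of the same arrays call the controls sham-treated, so exposure to poly(I:C) may or may not have been shared. Each array held RNA pooled from 6 mice and collected 1 week after poly(I:C). There were 2 pools per genotype, and the arrays with the same replicate number shared a slide, so that each slide held 1 pool of each genotype.

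Within the LSK gate, multipotent progenitors that turn toward lymphoid fates first acquire the receptor tyrosine kinase Flt3, whose ligand sustains them. Transcription factors such as Ikaros (Ikzf1) and the chromatin organizer Satb1 then favor lymphoid genes, and cells begin to transcribe Il7r, Ccr9, Dntt and the Rag genes before they commit to a lineage. Rag1 and Rag2 together form the recombinase that cuts antigen receptor genes, and Dntt encodes terminal deoxynucleotidyl transferase, which adds nucleotides to the cut ends. In sorted bulk RNA, a smaller share of cells that express a gene and less of its RNA per cell cannot be told apart, and this holds for every difference below.

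The 4 arrays were not equally bright. The 75th percentile of the signal, to which each array's log2 values were centered, was 148 and 90.3 on Meis1-deficient arrays 1 and 2, and 147 and 154 on control arrays 1 and 2, and the share of spots well above background ran from 49.2% on Meis1-deficient array 2 to 57.4% on control array 1. Meis1-deficient array 2 stood apart, since r with the others across probes was 0.891 to 0.916, while the remaining arrays reached 0.956 to 0.967. All 8 LSK markers, among them Kit and Ly6a (Sca-1), were well above background on every array. The targeted gene was lower in Meis1-deficient cells at its brighter probe (A_52_P670612), with log2 values of 0.25 and 0.22 against 1.02 and 1.45 in control cells, and whether that probe lies in the deleted exon was not examined here.

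The array measured each gene through 60-base probes, and a probe of each of Flt3, Il7r, Dntt and Ikzf1 is shown. The Flt3 probe (chr5:148159595-148159654, mm9 as given by the array's annotation) is the only one for this gene. Of the 3 Il7r probes, the one shown (chr15:9440943-9441002) stayed dim, and the Il7r difference given below comes from another. The Dntt probe shown carries the accession of a transcript variant, and its 60 bases are spread over 1570 bp (chr19:41115786-41117355), so that it crosses an intron. The Ikzf1 probe likewise spans 2960 bp (chr11:11658319-11661278).

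Flt3 A_51_P203916: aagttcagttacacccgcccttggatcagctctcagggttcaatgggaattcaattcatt
Il7r A_52_P555957: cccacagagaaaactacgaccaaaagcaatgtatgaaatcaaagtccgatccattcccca
Dntt A_52_P169420: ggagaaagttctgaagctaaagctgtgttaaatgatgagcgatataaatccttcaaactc
Ikzf1 A_52_P618569: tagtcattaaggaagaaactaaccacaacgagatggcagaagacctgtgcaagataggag

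Flt3 fell in Meis1-deficient LSK cells and was alone among the 9 member probes in meeting, in limma, the criteria stated in the methods, which ask for more than 2-fold and, before any adjustment, p under 0.01. Among all 22007 tested probes, 0.6% met these criteria in the lower direction. The processed signal of the Flt3 probe was 128 and 135 on control arrays 1 and 2, but 29.7 and 3.42 on Meis1-deficient arrays 1 and 2. Both control arrays were thus alike and both Meis1-deficient arrays lay far below them, with no overlap. On the log2 scale centered on each array's 75th percentile, where 0 is that percentile, Flt3 stood at -0.19 and -0.19 in control cells and at -2.32 and -4.72 in Meis1-deficient cells.

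The size of the Flt3 difference was less certain than its direction. On slide 1, where both arrays measured the transcript well above background, Flt3 was 4.36-fold lower in Meis1-deficient cells. On slide 2 the Meis1-deficient spot was not well above background, and Flt3 was at least 8.36-fold lower when that spot is placed at the dimmest signal this array could still measure. Averaged over slides with the same floor, the difference was at least 6.04-fold, and the measured log2 difference was -3.33 (SE 0.80, 95% confidence interval -5.28 to -1.39, limma, unadjusted p = 0.00556). Across the 22007 probes the Benjamini-Hochberg adjusted p was 0.983, and the smallest of any probe was 0.467. With the slide as a block in limma, the SE of Flt3 was 0.61, the unadjusted p 0.000283 and the adjusted p 0.0953. Without Meis1-deficient replicate 2 the log2 difference was -2.13, and without Meis1-deficient replicate 1 it was -4.53. In both of these fits the spread came from the control arrays alone. The call was lost without control array 1 or 2 (limma, unadjusted p = 0.0116 and 0.0117), without scaling (limma, unadjusted p = 0.0171) and in the t-test of the methods on the same values (unadjusted p = 0.109).

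**Figure D1:**
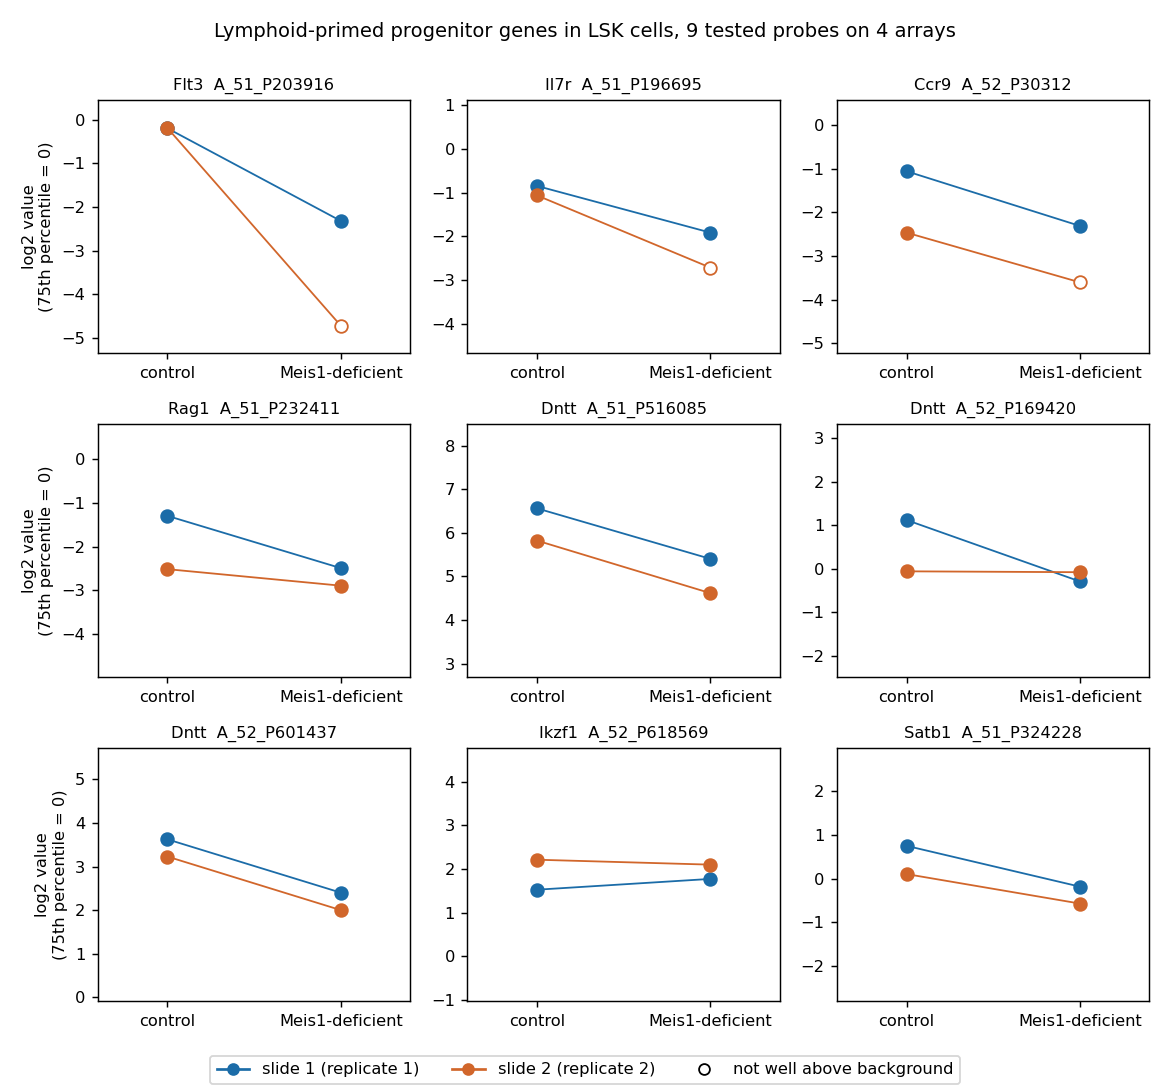
Each panel plots 1 tested probe, with log2 values (75th percentile of the array at 0) on a vertical axis of the same length in all panels, and lines join the control and Meis1-deficient arrays of slide 1 (blue) and slide 2 (orange). Open circles are spots not well above background. Flt3 falls from -0.19 on both control arrays to -2.32 and -4.72, whereas Ikzf1 rises slightly on slide 1 and falls slightly on slide 2.

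The other receptors, Il7r and Ccr9, read lower without Meis1 on each slide, by less than Flt3, and neither met the criteria. Il7r encodes the chain of the interleukin-7 receptor that is specific to interleukin-7 and TSLP, on which lymphoid precursors depend. Its detected probe (A_51_P196695, chr15:9435976-9436035) read -0.84 and -1.06 in control cells and -1.91 and -2.72 in Meis1-deficient cells. The genotypes did not overlap, but the second Meis1-deficient spot was not well above background. The log2 difference was -1.07 on slide 1 and -1.66 on slide 2, with a mean of -1.36 (SE 0.48, limma, unadjusted p = 0.0286, adjusted p = 0.983).

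The other Il7r probes did not measure the transcript. Their signals, between 1.59 and 2.49 for A_52_P32750 and between 2.18 and 10.5 for A_52_P555957, were not well above background on any array. Il7r therefore rests on 1 of its 3 probes.

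Ccr9 encodes the receptor for CCL25, which guides progenitors to the thymus. Its probe (A_52_P30312, chr9:123690334-123690393) read -1.06 and -2.46 in control cells and -2.31 and -3.60 in Meis1-deficient cells, the last of these not well above background. Control array 2 lay below Meis1-deficient array 1, so the genotypes overlapped, yet Ccr9 was lower in Meis1-deficient cells within each slide, 2.39-fold on slide 1 and, with the dim spot at the floor, at least 1.73-fold on slide 2. The mean of the measured log2 differences was -1.20 (SE 0.69, limma, unadjusted p = 0.13), and the unadjusted p with the slide as a block was 0.0294. After normexp background correction with an offset of 50, which lifts dim spots, the differences shrank to -0.45 and -0.23 for Il7r and to -0.39 and -0.19 for Ccr9, with quantile and 75th percentile scaling.

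The recombinase genes were close to the limit of detection. Rag1 was measured on all 4 arrays by 1 probe (A_51_P232411, chr2:101478813-101478872), at -1.29 and -2.52 in control cells and -2.49 and -2.90 in Meis1-deficient cells. Control array 1 stood above the other 3, which lay close together, and the genotypes overlapped. The log2 difference was -1.20 on slide 1 and -0.38 on slide 2, with a mean of -0.79 (SE 0.56, limma, unadjusted p = 0.204). Without control replicate 1 it was -0.18, and after normexp it was -0.26 with quantile and -0.019 with 75th percentile scaling.

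A second Rag1 probe, printed 10 times on each array (A_51_P232416), singled out the same array. It was well above background in 9 of 10 spots on control array 1 and in none of 10 on the other 3. Its median signal was 11.2 on control array 1, 2.97 on control array 2, and 5.10 and 2.40 on Meis1-deficient arrays 1 and 2. The third Rag1 probe (A_52_P646895) was dim on all 4 arrays.

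Rag2, also printed 10 times (A_52_P259521), was not detected in either genotype. On control array 1, 1 of 10 spots was well above background, with a signal of 12.2, and no spot was on the other arrays. The median signals were 1.77 and 2.58 on the control arrays and 1.93 and 2.11 on the Meis1-deficient arrays. A genotype difference in Rag2 was not detectable at this signal, which is not a measurement of its absence.

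**Figure D2:**
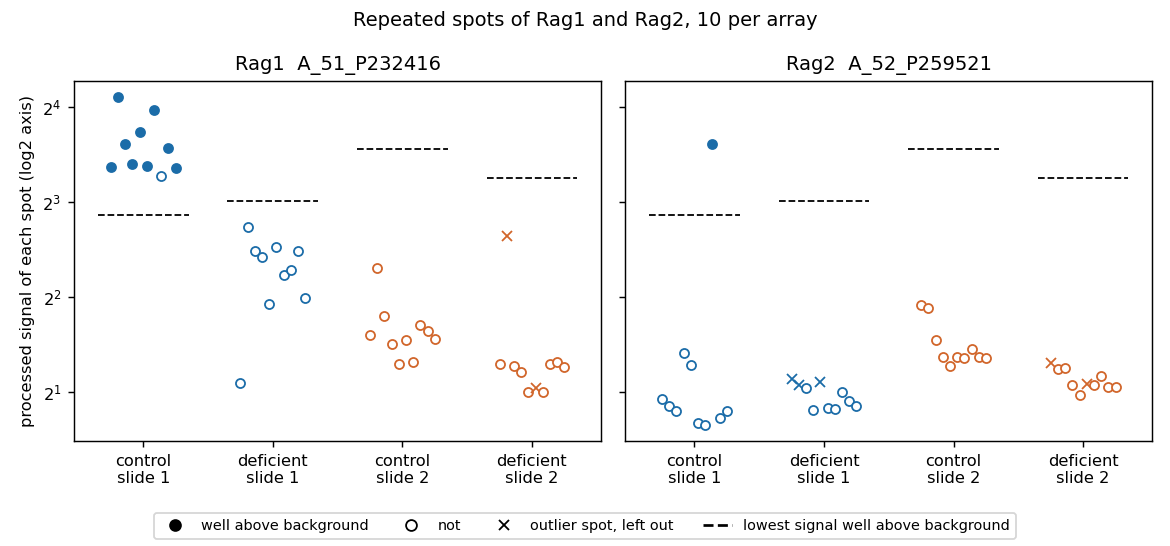
The repeated spots of a Rag1 probe (left) and the Rag2 probe (right) are plotted by array, with processed signal on a log2 axis, filled circles for spots well above background and crosses for outlier spots that were left out. Dashed lines mark the lowest signal that was well above background on each array. Rag1 on control array 1 lies above its line with a median of 11.2, as does 1 Rag2 spot on the same array.

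Dntt gave the most even difference between slides at 2 of its 3 probes. The brightest (A_51_P516085, chr19:41133936-41133995) read 6.56 and 5.82 in control cells and 5.40 and 4.62 in Meis1-deficient cells. Both control arrays were above both Meis1-deficient arrays. Dntt was 2.23-fold lower in Meis1-deficient cells on slide 1 and 2.31-fold lower on slide 2. The mean log2 difference was -1.18 (SE 0.52, limma, unadjusted p = 0.0614, adjusted p = 0.983), and the unadjusted p with the slide as a block was 0.031.

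A second Dntt probe, which starts 175 bases away (A_52_P601437, chr19:41133761-41133820), read 3.62 and 3.23 in control cells and 2.40 and 2.00 in Meis1-deficient cells, again without overlap. Its log2 difference was -1.22 on slide 1 and -1.23 on slide 2, with a mean of -1.23 (SE 0.45, limma, unadjusted p = 0.0327). After normexp background correction with an offset of 50 this probe met the criteria (log2 difference -1.27 with quantile and -1.31 with 75th percentile scaling). The 2 probes lie side by side and are not independent readings of the gene.

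The probe across an intron did not follow them on slide 2. A_52_P169420 read 1.12 and -0.056 in control cells and -0.29 and -0.076 in Meis1-deficient cells, so that 3 of 4 arrays were nearly level. Its log2 difference was -1.41 on slide 1 and -0.02 on slide 2 (mean -0.71, SE 0.54, limma, unadjusted p = 0.231). The 3 probes of Dntt thus gave like differences on slide 1 and unlike ones on slide 2, and the difference between probes was not tested.

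Satb1, which folds chromatin at lymphoid loci, read lower without Meis1 on each slide. Its detected probe (A_51_P324228, chr17:51879137-51879196) read 0.75 and 0.10 in control cells and -0.19 and -0.57 in Meis1-deficient cells. The genotypes did not overlap, although control array 2 and Meis1-deficient array 1 lay near each other. The log2 difference was -0.94 and -0.68 on slides 1 and 2 and -0.81 on average (SE 0.47, limma, unadjusted p = 0.135), and it was -0.48 without control replicate 1. The other Satb1 probe (A_52_P110489) was dim on every array.

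Ikzf1, the founding member of the Ikaros zinc finger family, showed no shift beyond the spread of the arrays. Its probe read 1.53 and 2.21 in control cells and 1.77 and 2.10 in Meis1-deficient cells. The control values enclosed the Meis1-deficient ones. The log2 difference was 0.25 on slide 1 and -0.11 on slide 2, with a mean of 0.067 (SE 0.47, limma, unadjusted p = 0.891) and a 95% confidence interval of -1.08 to 1.21, which still spans a 2-fold change either way. Its sign turned negative without scaling, with quantile normalization and after normexp.

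Read together against all tested probes, the member probes lay toward the lower side. The median log2 difference of the 9 was -1.18, against 0.082 over all tested probes, and it was -1.20 against 0.025 on slide 1 and -1.14 against 0.13 on slide 2. Other scalings moved the median of all probes to -0.30 without scaling, 0.17 with median scaling and 0.03 with quantile normalization. The median of the 9 ran from -1.43 to -0.49 with 1 array left out, the latter without control replicate 1. After normexp it was -0.50 with quantile and -0.49 with 75th percentile scaling. The mean difference was below 0 for 8 of 9 member probes and for 43.7% of all probes, and 8 of 9 were lower on both slides, against 21% of all. A mean more than 2-fold lower was seen for 5 of 9 and for 7.27% of all. More than 1.5-fold lower on both slides were 6 of 9 and 3.67% of all, and more than 2-fold lower on both slides were 5 of 9 and 1.56% of all. The 5 past 2-fold on both slides were Flt3, Il7r, Ccr9 and the Dntt probes that lie side by side. With dim spots placed at the floor, 4 of 9 and 0.891% of all were past it, since Ccr9 dropped out. The genotypes did not overlap, with Meis1-deficient cells lower, at 6 of 9 and at 10.9% of all, and none of the 9 was higher without overlap, against 16% of all. At the Dntt probe A_52_P169420 that gap was only the one between -0.056 and -0.076. An unadjusted limma p under 0.05 in the lower direction was reached by 3 of 9 and by 1.89% of all (2.81% of all in either direction), and with the slide as a block by 5 of 9 and by 4.14%. With the block the criteria were met by 1 of 9, against 1.4% of all in the lower direction, and by none of 9, against 0.591%, in the higher direction.

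These counts depend on how probes qualified for the test, and the members were chosen with earlier results of these data known. Flt3, Il7r and Ccr9 were dim on Meis1-deficient array 2 and passed through the control group alone, which favors a lower reading. Among the 6 member probes well above background on all 4 arrays, 5 were lower on both slides, against 17.7% of such probes, 2 were more than 2-fold lower on both, against 0.52%, and 4 did not overlap in the lower direction, against 8.13%. Of these 6, 3 are the Dntt probes. The 2 are the Dntt probes that lie side by side, and the 4 are the 3 Dntt probes and Satb1. An exact permutation test of 2 arrays against 2 cannot give a p below 0.333.

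**Figure D3:**
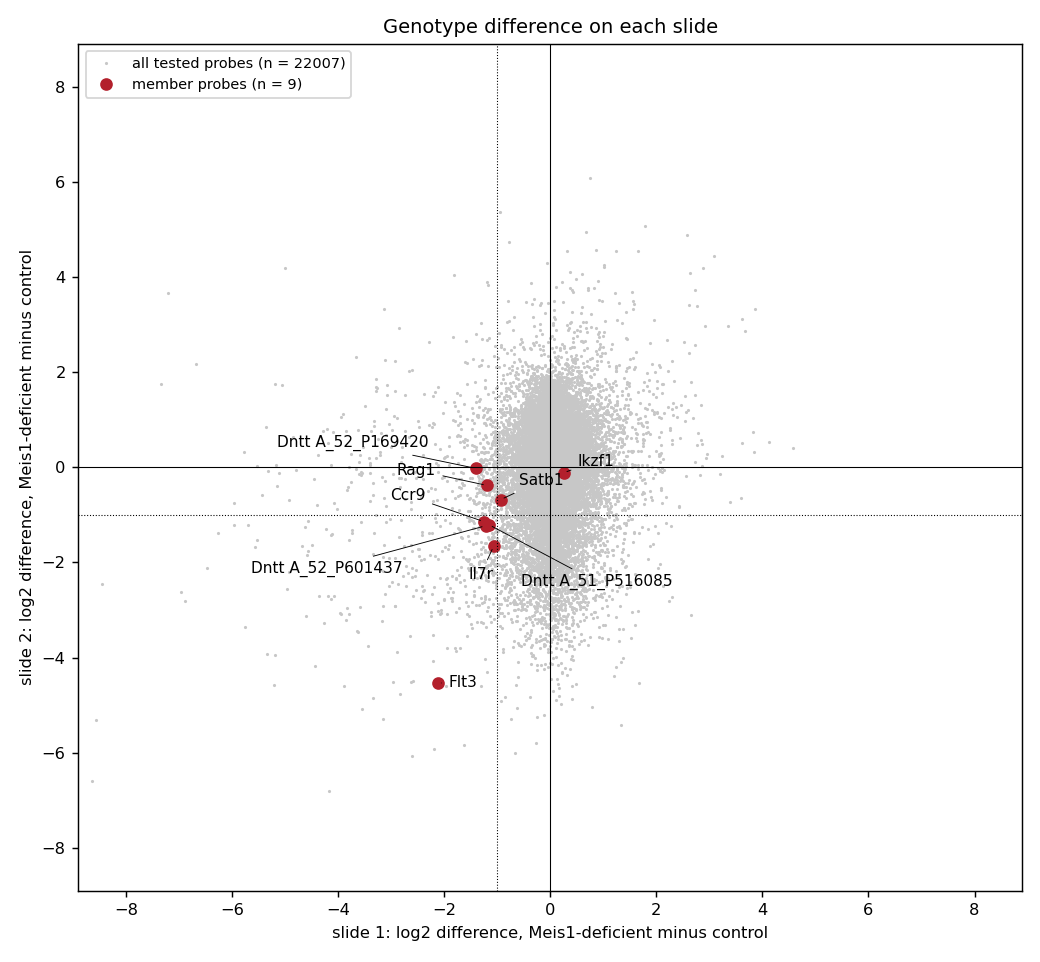
The log2 difference between Meis1-deficient and control cells on slide 1 (horizontal) is plotted against that on slide 2 (vertical) for all 22007 tested probes in grey and the 9 member probes in red, and dotted lines mark 2-fold lower. Flt3, Il7r, Ccr9 and the paired Dntt probes lie past 2-fold lower on both slides, the first 3 of these through spots on Meis1-deficient array 2 that were dim, and Ikzf1 lies near the origin.

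Markers of other cell types differed between arrays, and their part in the member differences was not tested. Of 6 B cell markers, 5 and 3 were well above background on control arrays 1 and 2, and 4 and 3 on Meis1-deficient arrays 1 and 2. Their signal, relative to the 75th percentile and summed, was 3.08 and 1.60 in control cells and 1.76 and 2.04 in Meis1-deficient cells. Control array 1 was highest in this sum, and Il7r, Ccr9, Rag1, Dntt and Satb1 were highest on it as well. On slide 2 the B cell sum was higher in Meis1-deficient cells, while Dntt and Flt3 were lower there. Plasma cell markers summed to 27.2 and 13.4 in control cells and 5.0 and 25.8 in Meis1-deficient cells, T cell markers to 0.14 and 0.58 against 0.45 and 0.51, and dendritic markers to 2.28 and 3.78 against 2.37 and 5.20. Cd22, Cd3e, Cd3g and the plasmacytoid dendritic cell marker Siglech were dim on all 4 arrays. Granulocyte and monocyte markers summed to 9.09 and 2.08 against 8.62 and 2.17, and erythroid markers to 6.57 and 0.70 against 3.89 and 0.71. Both sums were higher on slide 1 in either genotype. The erythroid sum on slide 1 came mostly from a single globin gene, and not every erythroid marker followed it.

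The ligand and signaling partners of Flt3 were examined beside it, and 0.736% of all probes met the criteria in either direction. In a list of 16 genes for the Flt3 ligand and proximal signaling, 15 were tested at 30 probes, with no call in either direction, with or without the block. The median of their brightest probes was 0.14, with 6 genes below 0 and 9 above. Flt3l, the ligand, had the largest absolute difference of the list over brightest probes and read 0.62 and 0.11 in control cells and 0.95 and 1.30 in Meis1-deficient cells (difference 0.76, limma, unadjusted p = 0.144). Among class III receptor tyrosine kinases, the family of Flt3, Kit read 2.03 and 2.14 in control cells and 1.95 and 1.81 in Meis1-deficient cells (difference -0.21, limma, unadjusted p = 0.639), and Csf1r, the M-CSF receptor, differed by 0.25 on slide 1 and was dim on Meis1-deficient array 2, which leaves its mean difference without a sign (limma, unadjusted p = 0.827). Pdgfra was not tested, and Pdgfrb differed by 0.014.

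Partners of the interleukin-7 receptor were tested at 25 probes, none of which met the criteria, beside 0.736% of all probes. Of 14 genes, 8 were below and 6 above 0, and the median was -0.024. Il2rg, the shared gamma chain, read 2.44 and 1.87 in control cells and 2.28 and 1.93 in Meis1-deficient cells (difference -0.05, limma, unadjusted p = 0.916), and Jak1 and Jak3, the kinases of the complex, differed by -0.16 and 0.051. Il7 itself was well above background in both control arrays and dim in both Meis1-deficient arrays, at least 1.99-fold lower by its brighter probe, with limma's unadjusted p at 0.0673.

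Genes that serve V(D)J recombination beside Rag and Dntt had a median of -0.19 over 12 tested genes, of which 9 were below and 3 above 0. None of their 23 probes met the criteria. Lig4, the ligase that seals the broken ends, lay lowest over brightest probes, at -1.19 and -1.27 in control cells and -2.60 and -1.70 in Meis1-deficient cells (difference -0.92, limma, unadjusted p = 0.108).

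The Ikaros paralogs had differences of both signs. Ikzf2 (Helios) read 6.28 and 5.54 in control cells and 6.44 and 7.33 in Meis1-deficient cells at its brightest probe (difference 0.98, limma, unadjusted p = 0.114), and all 5 of its probes were higher on both slides. Ikzf4 (Eos) read 2.04 and 2.20 in control cells and 0.32 and 1.31 in Meis1-deficient cells (difference -1.30, limma, unadjusted p = 0.0405), Ikzf3 (Aiolos) differed by -0.48 and Ikzf5 by 0.16. Chd4, the ATPase of the NuRD complex that Ikaros recruits, had the largest absolute difference of the list at its brightest probe, -1.37, which came from slide 2 (-2.82) and not from slide 1 (0.085). None of the 21 probes of these genes met the criteria, 6 of 9 genes were above 0, and the median was 0.078.

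Among 20 tested transcription factors of lymphoid priming, 13 were below and 7 above 0, with a median of -0.13 and none of 40 probes called. Foxp1, which is needed in early B cell development, had the largest absolute difference over brightest probes, -1.73, again with most of the difference on slide 2 (-3.12 against -0.35). Markers of lymphoid-primed progenitors other than the members had a median of -0.14 over 15 genes, 8 below and 7 above 0, and none of 24 probes met the criteria. Ly6d, which marks B-biased lymphoid progenitors, differed by -3.32 on slide 1 and 0.86 on slide 2.

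Genes of B lineage commitment had the lowest median of the 10 lists, -0.56 over 9 tested genes, with 8 below 0. None of their 12 probes met the criteria, and 1 did with the block. It was Irf4, a factor of B cells and plasma cells, at -0.37 and -2.73 in control cells and -3.94 and -3.89 in Meis1-deficient cells (difference -2.36, limma with the slide as a block, unadjusted p = 0.00309, adjusted p = 0.309). Irf4 was dim on Meis1-deficient array 2, so that slide 2 gives a bound of at least 1.43-fold. Pax5 and Ebf1, which define commitment to the B lineage, were not tested because their probes stayed dim. Early T lineage genes had a median of -0.25 over 6 tested genes with none of 7 probes called, and over brightest probes the largest absolute difference was that of Tcf7 (TCF-1), which was dim on Meis1-deficient array 2, at least 3.29-fold lower on slide 2 and different by -0.54 on the log2 scale on slide 1, where its other probe (A_52_P244702) differed by 0.16. Stem and multipotent progenitor genes had a median of -0.16 over 14 genes, 9 below and 5 above 0, and the dimmer Meis1 probe (A_52_P26195), dim on Meis1-deficient array 2, met the criteria with the block (difference -1.70, limma, unadjusted p = 0.0098). Over all 10 lists, 0 of 203 tested probes met the criteria in limma, against 0.736% of all probes, and 2 did with the block, both in the lower direction, against 1.4% of all probes.

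**Figure D4:**
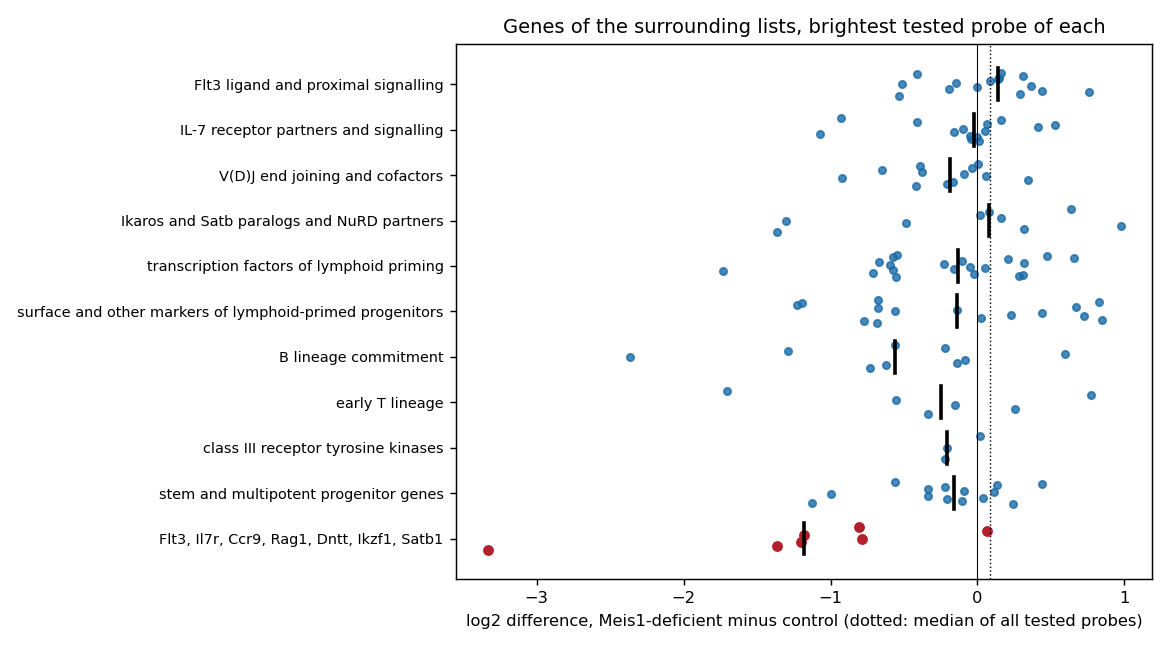
Points give the log2 difference between Meis1-deficient and control cells at the brightest tested probe of each gene, by list, black bars give list medians, and the dotted line is the median of all tested probes (0.082). List medians lie between -0.56 and 0.14, and the bottom row gives the 7 measured member genes in red with a median of -1.18. That member median ran from -1.58 to -0.49 with 1 array left out. After normexp it was -0.45 (quantile) and -0.23 (75th percentile), and the list medians were not computed in these settings.

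The genes whose profile over the 4 arrays was nearest to that of Flt3 were Stxbp4, Ddr1, Lypd6b, LOC100045391 and Ank1, at Euclidean distances of 0.54, 0.60, 0.62, 1.07 and 1.09 between centered log2 values. All 5, like Flt3 itself, were dim on Meis1-deficient array 2, so these distances rest in part on spots that were not measured well above background. Stxbp4, which encodes a syntaxin-binding protein, read 0.50 and 0.30 in control cells and -1.45 and -3.50 in Meis1-deficient cells. With 4 arrays, such distances only describe likeness.

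Promoter sequence was set beside these differences for Flt3, the member that fell most, and Dntt, which at 2 of its 3 probes differed evenly on both slides. The windows are from RefSeq on GRCm38.p6 and run from 250 bases before the annotated start to 20 bases after it. Flt3 lies on the minus strand (chr5:147400470-147400739) and Dntt on the plus strand (chr19:41029025-41029294). Capitals mark the core of the Meis homeodomain motif, TGACAG, which in the Dntt window is read on the opposite strand and in the Flt3 window is not present.

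Flt3 promoter: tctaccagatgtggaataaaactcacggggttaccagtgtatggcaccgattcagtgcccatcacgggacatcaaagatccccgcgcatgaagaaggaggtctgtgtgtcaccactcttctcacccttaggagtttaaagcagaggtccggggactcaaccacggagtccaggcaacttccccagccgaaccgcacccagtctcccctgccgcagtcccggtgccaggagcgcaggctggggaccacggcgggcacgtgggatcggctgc
Dntt promoter: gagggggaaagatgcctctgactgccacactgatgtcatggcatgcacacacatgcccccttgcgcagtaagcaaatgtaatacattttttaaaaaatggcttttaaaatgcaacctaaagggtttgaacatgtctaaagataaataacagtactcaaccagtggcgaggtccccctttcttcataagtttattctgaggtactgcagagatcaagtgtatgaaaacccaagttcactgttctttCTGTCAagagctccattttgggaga

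In full windows that reach 50 bases past the start, TGACAG was found on either strand for Rag1, Rag2 and Dntt, that is in 3 of the 13 windows of the 8 genes (23.1%), and in 19.2% of all 32851 promoter windows. The Runx motif TGTGGT was found for Rag1 and Il7r, in 2 of 13 windows (15.4%), and in 16.8% of all windows, and the Pbx-Hox motif TGATTNAT for none of the 8 and in 3.22% of all. Such matches describe letters in short windows, not binding.

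**Figure D5:**
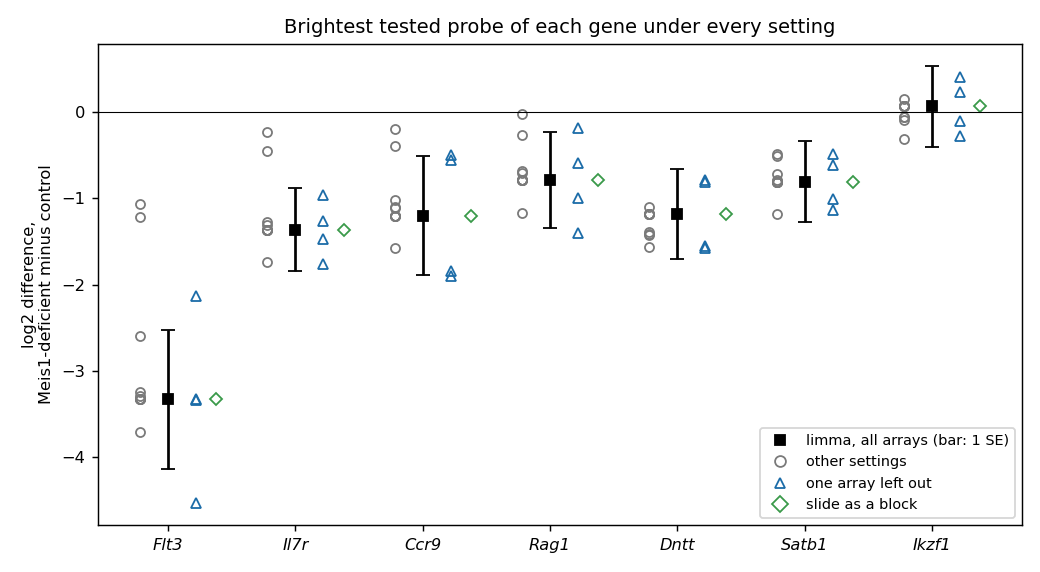
Log2 differences between Meis1-deficient and control cells are plotted for the brightest tested probe of 7 genes, with black squares for limma on all arrays (bars are 1 SE), grey circles for other settings, blue triangles with 1 array left out and green diamonds with the slide as a block. Flt3 lies below 0 throughout, between -4.53 and -1.06, whereas Ikzf1 lies on both sides of 0.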

How the data were processed

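Gene expression was measured in LSK cells on 4 single-color arrays of 60-base probes, 2 per genotype, after amplification and Cy3 labeling of 10 ng RNA. The authors deposited the spot intensities of each array as written by Feature Extraction, version 9.5.3.1 per the file headers and 9.1 per the labels. These processed intensities are background-subtracted and detrended within an array, not scaled between arrays, and 25.2% to 33.2% of the spots of an array carry a surrogate value in place of a signal under background. The deposited table of the series holds the same intensities, rounded.

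Control spots and those marked as outliers were removed, repeated spots averaged, and the 75th percentile of each array set to 0 on the log2 scale. A probe counted as well above background where at least 0.5 of its spots were. Genotypes were compared with limma 3.58.1 in R 4.3.3, Benjamini-Hochberg over 22007 probes, and figures were drawn with matplotlib 3.10.9. The fit was tested on simulated arrays. Samples were grouped by the labels. The slide, shared by equal replicate numbers as the files record, was a block in an alternative, and deviations of arrays on the same slide correlated at 0.266.

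Other alternatives were median, quantile and no scaling, normexp (offset 50), other filters and floors, the methods' t-test, an intensity trend and each array left out. The number of arrays limits the precision. Named genes were all 8 members, list genes that met the criteria with or without the block, or else the largest absolute difference of each of 10 lists, and the 5 profiles nearest to Flt3. The rest of the Ikaros family, Kit, Pdgfra, Pdgfrb, Il2rg, Jak1, Jak3, Pax5 and Ebf1 were named afterwards, for their place in the pathways. Members and lists were chosen with earlier results of these data known. 1 marker gene is not reported by itself here. Exon and UTR annotation of the probes was not used here. Probe positions are on mm9 and promoters on GRCm38.p6, and none were converted.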

Additional observations from a re-analysis of the deposited data

How the results depend on the processing

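The log2 difference of Flt3 was negative under all 16 alternatives and met the criteria in 12. It missed them without scaling (-3.71, limma, unadjusted p = 0.0171), in the methods' t-test (difference -3.33, unadjusted p = 0.109) and without either control array, and leaving out 1 array at a time gave -4.53 to -2.13. After normexp it met them at -1.22 (quantile) and -1.06 (75th percentile), a smaller size because the offset of 50 lifts dim spots. Ikzf1 changed sign with quantile normalization (-0.055), no scaling (-0.31) and normexp (-0.056 and -0.095), and between -0.28 and 0.41 when 1 array was left out. Il7r met the criteria without Meis1-deficient replicate 1 only (-1.77). Without control replicate 1, the difference of Rag1 moved from -0.79 to -0.18 and that of Ccr9 from -1.20 to -0.49. Without control replicate 2 they moved the other way, to -1.40 and -1.90, and without Meis1-deficient replicate 2 Ccr9 was -0.55.

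Of the member probes, 1 met the criteria. The number was 0 without scaling, in the methods' t-test and among probes well above background on all 4 arrays, 2 after normexp with either scaling, and 0 to 2 with 1 array left out. Of the probes in the lists, 0 met them, against 1 without scaling, 1 after normexp with either scaling, 1 with no filter on dim probes and 0 to 15 with 1 array left out. Over all tested probes 162 met them, 81.5% lower. The count was 43 and 47 after normexp (95.3% and 95.7% lower), 294 with no filter (66% lower), 53 for probes well above background on all arrays, 100 with dim spots raised to the floor, 30 in the methods' t-test, which gave 528 probes with p under 0.05 where limma gave 618, 101 with an intensity trend, and 107 to 2215 with 1 array left out, the highest without Meis1-deficient replicate 1. The share lower was 53.3% without control replicate 1 and 60.3% without control replicate 2. In limma on all 4 arrays with the filter and without the block, no adjusted p was under 0.05, against 3 with no filter on dim probes.

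With the replicate number, that is the slide, as a block, 437 probes met the criteria (70.3% lower), 50 had an adjusted p under 0.05, and 2 list probes were called. The Flt3 difference stayed at -3.33, and the block changed no other call of a member. A genotype left with 1 array took its spread from the other genotype. The 6 dim member probes of 15 were fitted only with no filter on dim probes, where none of them met the criteria.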
